A study of Rattus norvegicus with 15 samples.

Results

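Immediate early genes are transcribed within minutes of a strong input to a cell, from factors already present, and their short-lived transcripts serve as a record of recent neuronal activity. Of the 14217 genes that the array annotation names with 1 symbol, 10 were followed: Fos, Fosb, Junb, Egr1, Egr2, Egr4, Arc, Nr4a1, Nr4a3 and Dusp1. They were chosen by name, with earlier results of these data known. All 16 of their probe sets (the array's measuring units, each a group of probes against 1 transcript) were examined. The tissue was ventral tegmental area, where midbrain dopamine neurons lie, taken from 7 rats labelled as ethanol treatment and 8 labelled as age-matched water controls, with 1 array per rat. The series title places the ethanol group after loss-of-control drinking and names alcohol-preferring (P) rats, a line bred for high intake, while the submitters' design text mentions both high- and low-consuming selected lines. The labels separate ethanol from water only, so that was the comparison made. Neither sex, age and drinking schedule nor the interval between the last drink and death could be read from the labels. The 15 arrays include none of an ethanol animal number 3. Nothing in the labels names a batch, so none could be tested.

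In these genes, calcium and cyclic AMP signals act through kinases on the factor CREB, which binds the cyclic AMP response element (CRE), while growth factor and ERK signals act on serum response factor (SRF) and its Elk partners at the CArG box. The products are mostly transcription factors that carry the signal to later genes. Fos, Fosb and Junb are subunits of the AP-1 complex. Egr1, Egr2 and Egr4 are zinc finger factors, and Nr4a1 and Nr4a3 are orphan nuclear receptors. Arc acts at synapses, where it promotes the removal of AMPA receptors, and Dusp1 is a phosphatase that switches off MAP kinases. In the ventral tegmental area these transcripts are widely used to show which neurons a drug or a stressor has recently engaged.

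The promoters show which of these routes has its recognition letters next to each start site. RefSeq promoters (GRCr8) were held for 7 of the 10 genes, and the 250 bases before the start site were read. The promoters of the 4 tested genes in that set, Egr1, Nr4a1, Dusp1 and Junb, are printed because their levels are compared below, and that of Egr2 because of its likeness to that of Egr1. Capitals mark the CRE core (TGACG, read on either strand and so also CGTCA) and the CArG box.
Egr1 (chr18:26736828-26737077, plus strand): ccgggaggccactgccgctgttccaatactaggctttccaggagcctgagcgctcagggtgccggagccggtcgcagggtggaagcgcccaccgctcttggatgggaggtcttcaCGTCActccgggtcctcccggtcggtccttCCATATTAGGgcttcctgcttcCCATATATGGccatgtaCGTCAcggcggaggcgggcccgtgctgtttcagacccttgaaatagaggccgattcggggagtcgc
Egr2 (chr20:21054442-21054691, minus strand): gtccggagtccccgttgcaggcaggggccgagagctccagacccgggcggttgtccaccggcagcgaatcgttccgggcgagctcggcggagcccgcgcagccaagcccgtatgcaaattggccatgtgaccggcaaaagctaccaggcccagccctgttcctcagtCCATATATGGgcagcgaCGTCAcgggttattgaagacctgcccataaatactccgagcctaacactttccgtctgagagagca
Nr4a1 (chr7:134259888-134260137, plus strand): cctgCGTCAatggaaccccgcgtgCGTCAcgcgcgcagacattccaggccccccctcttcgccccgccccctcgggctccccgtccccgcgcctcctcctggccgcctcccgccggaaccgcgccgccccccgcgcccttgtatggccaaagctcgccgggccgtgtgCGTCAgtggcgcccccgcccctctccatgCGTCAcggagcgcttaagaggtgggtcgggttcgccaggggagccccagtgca
Dusp1 (chr10:17184603-17184852, plus strand): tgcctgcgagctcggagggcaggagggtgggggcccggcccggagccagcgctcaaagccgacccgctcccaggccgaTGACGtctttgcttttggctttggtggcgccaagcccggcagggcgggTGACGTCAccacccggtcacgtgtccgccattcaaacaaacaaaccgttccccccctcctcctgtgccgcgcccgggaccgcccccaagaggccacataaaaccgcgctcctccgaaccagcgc
Junb (chr19:40080876-40081125, plus strand): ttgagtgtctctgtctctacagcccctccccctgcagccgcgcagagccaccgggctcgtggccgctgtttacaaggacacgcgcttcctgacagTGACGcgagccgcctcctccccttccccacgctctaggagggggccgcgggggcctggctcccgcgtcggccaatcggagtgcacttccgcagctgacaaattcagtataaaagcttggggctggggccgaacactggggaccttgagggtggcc
The CRE core was present in 6 of the 7 promoters (4 copies in Nr4a1, 3 in Dusp1, 2 each in Egr1 and Egr4, and 1 each in Egr2 and Junb), against 18.2% of the 33469 promoters of the same length. The copies include those inside the full palindrome TGACGTCA, which contains the core on both strands and which Dusp1 carried, against 1.59% of all promoters. A CArG box was present in Egr1 (2 copies) and Egr2 (1 copy), against 1.5% of all promoters. In both genes the CArG box nearest to the start site ended 73 bases before it and was followed, 7 bases later, by a CRE core. The Egr binding letters GCGNGGGCG occurred in Nr4a1 (4.29% of all promoters), and the AP-1 letters TGANTCA in 0 of the 7 (6.34% of all). The Fosb window held none of these motifs. The share of G and C letters was 62.0% to 74.8% in the 6 promoters with the CRE core and 43.6% in Fosb. The median over all promoters was 51.2%. The shares of all promoters given above were not matched for this content, so they do not show an excess of motifs in these genes. These are matches of letters, counted on both strands, and no binding was measured.

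Values are log2 expression as deposited by the authors, normalised with RMA, which gives all arrays nearly the same distribution. Probe sets were tested if their mean over the 15 arrays reached the 40th percentile of all probe sets, a log2 value of 6.94. Of the 16 probe sets, 6 reached it, 1 each for Fos, Junb, Egr1, Nr4a1, Nr4a3 and Dusp1. The Nr4a3 set reached it only through the water rats, since its ethanol mean was 6.75. Its place among the 6 thus depends on the group where it was higher. All probe sets of Fosb, Egr2, Egr4 and Arc fell below it, as did the second sets of Fos and Dusp1 and 2 further sets of Nr4a3. The 6 tested sets all had lower means in ethanol rats, by a median of -0.40 log2 units, against a median of 0.0062 over all 18625 tested probe sets. None passed the threshold of an adjusted p below 0.05 in limma's moderated test with Benjamini-Hochberg adjustment over all 18625, of which 173, or 0.929%, did, 101 of them (0.542%) with lower means in ethanol rats. At an unadjusted p below 0.05 there were 5 of the 6, against 12.1% of all tested probe sets. None passed an exact permutation test over all divisions of the 15 arrays into 7 and 8 (adjusted p from 0.145 to 0.582, over all tested probe sets). That test called 61 of all 18625 probe sets. Its smallest possible p was 0.000155, and only probe sets at or near that value passed after adjustment. It thus had little room to call any of the 6. Over all 16 probe sets, 12 had lower and 4 had higher means in ethanol rats, with a median of -0.25, against 0.0087 over all 31042 probe sets. Because the array measures a piece of tissue, fewer cells of a type and less RNA per cell cannot be told apart.

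Among the Egr factors, Egr1 (1368321_at) had the largest difference of the 6 tested sets. Its log2 values in ethanol rats 1, 2, 4, 5, 6, 7 and 8 were 8.62, 8.99, 8.53, 9.74, 9.32, 8.97 and 9.14. In water rats the lowest value was 9.37, the median 9.63 and the highest 9.97. Thus 6 of the 7 ethanol rats lay below every water rat, and ethanol rat 5 lay above the water mean. Ethanol rats averaged 9.04 ± 0.41 (SD, n = 7), and water rats 9.66 ± 0.21 (SD, n = 8). The difference was -0.62 log2 units (SE 0.15, 95% interval -0.93 to -0.30), a level 34.8% lower in ethanol rats. It missed the threshold (limma adjusted p = 0.0689; exact permutation p = 0.00389, adjusted p = 0.145). The SE of Egr1 was 2.66 times the median SE of all tested probe sets.

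Egr4 and Egr2 were dim. The brighter Egr4 set (1387442_at) ranged from 6.10 to 6.67 in ethanol rats (median 6.26) and from 6.34 to 6.90 in water rats (median 6.62). Of the 7 ethanol rats, 4 lay below every water rat, and ethanol rat 5 was again the highest of its group. The difference was -0.28 (SE 0.09, adjusted p = 0.287 in the limma fit without the filter). The other Egr4 set (1375784_at) differed by 0.038 (SE 0.06). The 2 sets of Egr2, whose promoter holds the same CArG and CRE pair as that of Egr1, differed by -0.015 and 0.040 (SE 0.05 each), with 95% intervals of -0.12 to 0.090 and -0.075 to 0.16.

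**Figure D1:**
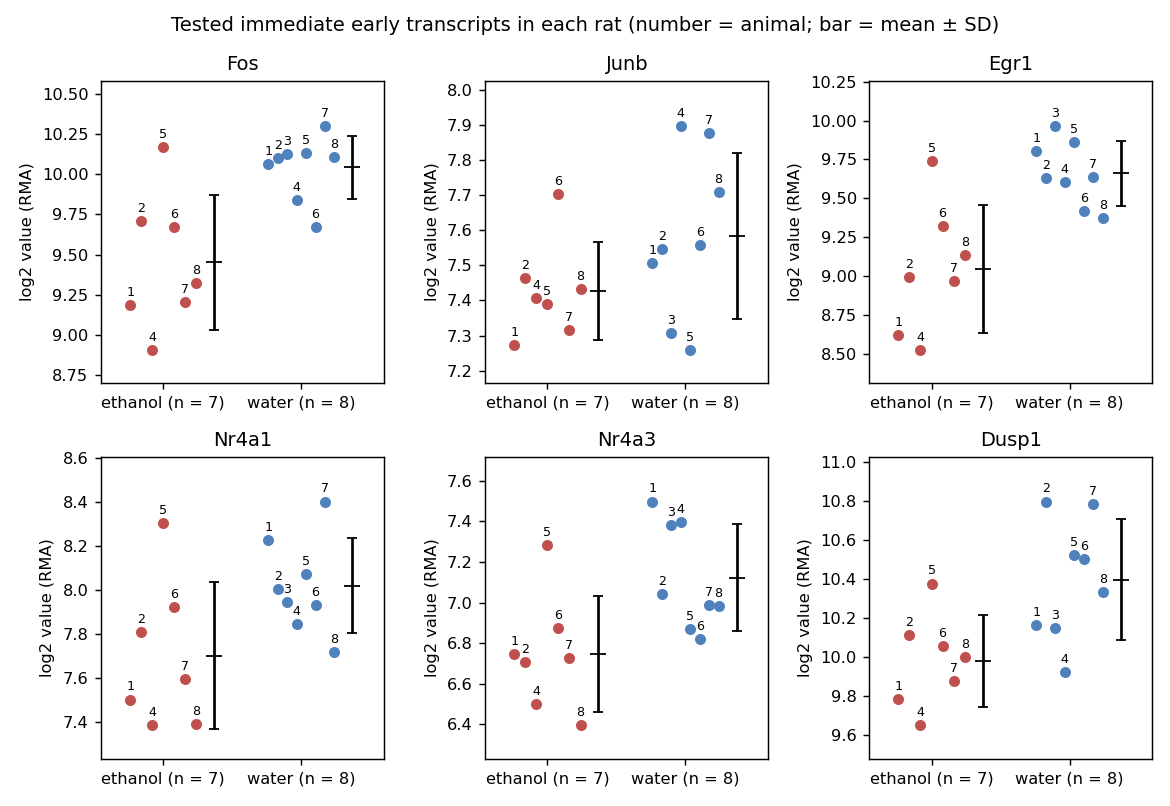
Log2 values of the 6 tested transcripts in each ethanol rat (red, left, n = 7) and water rat (blue, right, n = 8), with animal numbers and the group mean ± SD as a black bar. Ethanol rat 5 is the highest ethanol rat for Fos, Egr1, Nr4a1, Nr4a3 and Dusp1, but not for Junb, where ethanol rat 6 is the highest.

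Of the AP-1 subunits, Fos (1375043_at) followed Egr1 closely. Ethanol rats 1, 2, 4, 5, 6, 7 and 8 had log2 values of 9.19, 9.71, 8.91, 10.17, 9.67, 9.20 and 9.32. Water rats had a lowest value of 9.67, a median of 10.11 and a highest value of 10.30. Below all water rats lay 5 ethanol rats, although rat 6 of these is equal to the lowest water rat at the decimals given. Ethanol rat 5 stood second among all 15. The difference was -0.59 log2 units (SE 0.15, 95% interval -0.91 to -0.28), a level 33.7% lower in ethanol rats (limma adjusted p = 0.0872; exact permutation p = 0.00528, adjusted p = 0.165). The second Fos set (1371283_at), with a mean of 5.24, was far below the filter and differed by 0.046 (SE 0.09).

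Junb, a partner of Fos in AP-1, had the smallest difference of the 6 tested sets. It ranged from 7.27 to 7.70 in ethanol rats (median 7.41) and from 7.26 to 7.90 in water rats (median 7.55). No ethanol rat lay below the lowest water rat. The difference was -0.16 (SE 0.09, 95% interval -0.36 to 0.042; limma adjusted p = 0.531). Fosb, whose stable splice form accumulates with repeated stimulation, was dim, with values from 4.87 to 5.61 in ethanol rats and from 5.16 to 5.70 in water rats. Its difference was -0.23 (SE 0.10, limma adjusted p = 0.458 without the filter). Which splice forms the probe set detects was not examined.

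The nuclear receptors also had lower means in ethanol rats in 3 of their 4 probe sets. Nr4a1 (1386935_at) ranged from 7.38 to 8.31 in ethanol rats (median 7.59) and from 7.72 to 8.40 in water rats (median 7.98), and 4 ethanol rats lay below all water rats. The difference was -0.32 (SE 0.13, limma adjusted p = 0.327). Nr4a3 was measured by 3 sets. The tested one (1393389_at) ranged from 6.40 to 7.28 in ethanol rats (median 6.73) and from 6.82 to 7.50 in water rats (median 7.01). Its mean of 6.95 was just above the filter, with an ethanol mean of 6.75 below it and a water mean of 7.12 above it. The difference was -0.38 (SE 0.13, limma adjusted p = 0.229). The second set (1369067_at), with a mean of 6.80, lay just below the filter. It ranged from 5.95 to 7.29 in ethanol rats (median 6.44) and from 6.71 to 7.49 in water rats (median 7.02), with 6 of the 7 ethanol rats below every water rat. Its difference of -0.60 (SE 0.16, limma adjusted p = 0.140 without the filter) had the same sign as that of the tested set. The third set (1369217_at) had a mean of 5.35 and differed by 0.077 (SE 0.07).

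Dusp1, the feedback phosphatase, was the one tested gene with every ethanol rat below the water mean. The set 1368146_at ranged from 9.65 to 10.38 in ethanol rats (median 9.999) and from 9.92 to 10.80 in water rats (median 10.42). The groups overlapped, since 4 water rats lay below the highest ethanol rat. The difference was -0.42 (SE 0.13, 95% interval -0.70 to -0.14), a level 25.2% lower in ethanol rats (limma adjusted p = 0.184; exact permutation p = 0.0149, adjusted p = 0.257). A second, dim set (1368147_at) ranged from 5.32 to 5.62 in ethanol rats and from 5.46 to 6.25 in water rats, with a difference of -0.35 (SE 0.10, limma adjusted p = 0.217 without the filter). Arc, the synaptic member, ranged from 5.86 to 6.15 in ethanol rats (median 6.05) and from 5.93 to 6.37 in water rats (median 6.03). Its difference was -0.082 (SE 0.07, 95% interval -0.23 to 0.063), at a brightness below the filter.

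**Figure D2:**
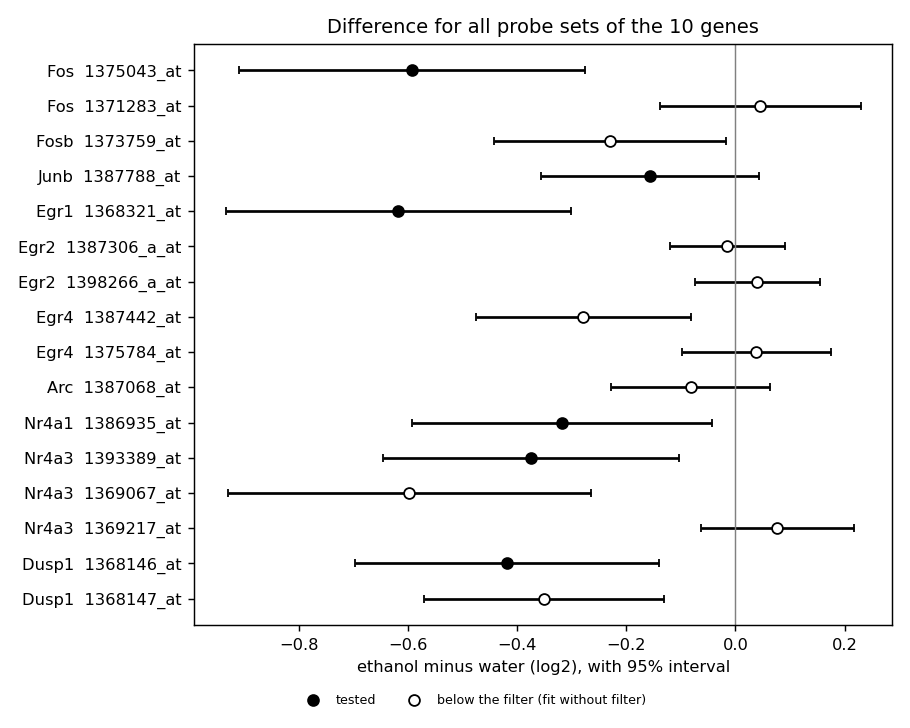
Ethanol minus water difference (log2, horizontal axis) with its 95% interval for all 16 probe sets of the 10 genes. Filled circles are the 6 tested sets and open circles those below the filter; the intervals of Fos, Egr1, Nr4a1, Nr4a3 and Dusp1 among the tested sets lie below 0, and that of Junb includes 0.

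By their brightest probe sets, most of these genes had their highest ethanol value in ethanol rat 5. Dixon's ratio, described at the end, marked this rat as an outlier for none of the member probe sets. For the 6 tested sets its median difference from the water mean was 0.10 log2 units, against -0.69 to -0.29 in the other 6 ethanol rats, and 2 of the 6 sets, Junb and Dusp1, were below the water mean. Ethanol rat 4 was at the other end (-0.69). Without ethanol rat 5, Egr1 (log2 -0.73, limma adjusted p = 0.0102) and Fos (-0.71, limma adjusted p = 0.0112) passed the threshold, beside 138 of all 18625 probe sets, or 0.741%. The others did not pass, with limma adjusted p of 0.0798 for Nr4a3, 0.107 for Nr4a1, 0.121 for Dusp1 and 0.591 for Junb. This rat was singled out by its values of these same genes, so the fit without it is no independent test. Leaving out any other single rat gave 0 calls among the 6. With all 15 rats, Egr1 alone passed when arrays were centred on their medians (limma adjusted p = 0.0479, with 1.09% of all probe sets called) and when arrays were weighted by their quality (limma adjusted p = 0.0423, with 1.23% called).

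The median correlation of the array of ethanol rat 5 with the other arrays was 0.9909, the lowest of the ethanol arrays. The other 6 ethanol arrays ran from 0.9918 to 0.9925 and the water arrays from 0.9881 to 0.9922. Among the 138 probe sets called without it, 79.0% lay nearer to the mean of the other ethanol rats than to the water mean, within the range of 65.0% to 94.0% found when the same was done for each rat. In 4 of the 11 marker lists read, its mean level lay outside the range of the other ethanol rats. The mean of 6 dopamine neuron markers was 12.94 in this rat, against 13.02 to 13.58 in the other ethanol rats and 12.82 to 13.39 in water rats. The mean of 4 markers of GABA and glutamate neurons was 12.05, the highest of all 15. It ran from 11.50 to 11.90 in the other ethanol rats and from 11.42 to 11.97 in water rats. In ethanol rat 5 the GABA markers Gad1, Gad2 and Slc32a1 were the highest of the ethanol group. The glutamate marker Slc17a6 was at 11.62 in this rat, below the means of 11.93 in ethanol rats and 12.22 in water rats. Slc6a4, the serotonin transporter of the neighbouring raphe, was at 10.70, second of 15, against 6.14 to 9.59 in the other ethanol rats and 6.35 to 10.96 in water rats. The mean of 7 astrocyte markers was 11.94, against 11.59 to 11.88 in the other ethanol rats and 11.66 to 11.96 in water rats. The astrocyte markers were divided in ethanol rat 5. Slc1a2 (7.22) and Gjb6 (10.92) were the lowest of the ethanol group and below every water rat, while the other markers were the highest of the ethanol group. The part of these differences in the immediate early values was not tested.

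**Figure D3:**
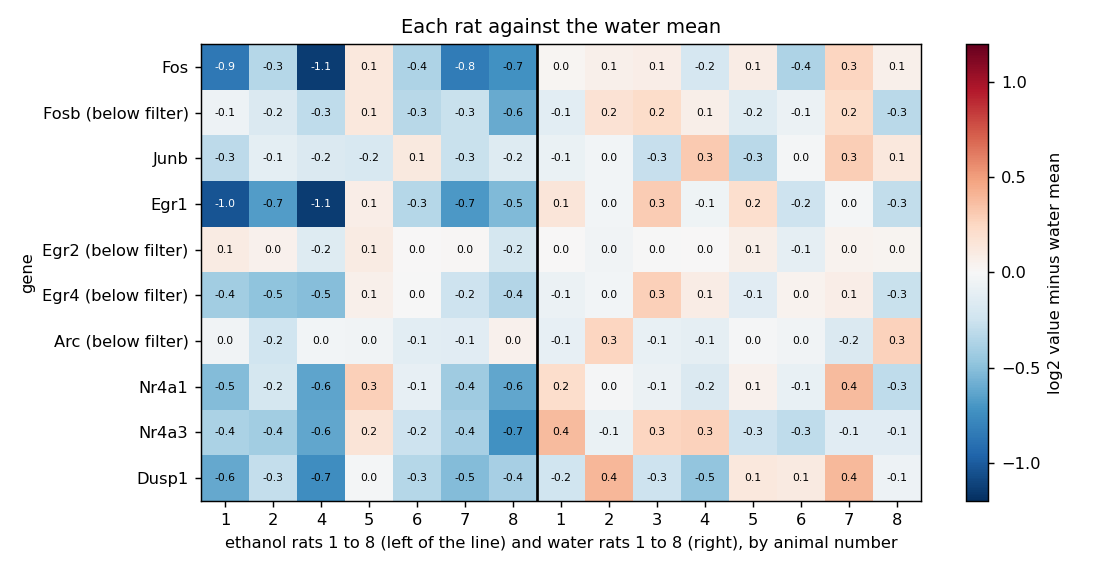
Log2 value minus the water mean for the 10 genes (rows, each by its brightest probe set) in the 7 ethanol rats (left of the line) and 8 water rats (right), blue for lower and red for higher. Ethanol rats 1, 4, 7 and 8 are lowest for Fos and ethanol rats 1, 2, 4 and 7 for Egr1, while ethanol rat 5 resembles the water rats.

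The same rats tended to be high or low for several of the genes. After removal of the group means, Pearson's r was computed over the 15 rats for all 45 gene pairs, with p-values from permutation within groups and Benjamini-Hochberg adjustment over the 45. Fos and Nr4a1 had the highest value (r = 0.82, permutation p = 0.00074, adjusted p = 0.0333; Spearman's rho = 0.79, permutation p = 0.00267, adjusted p = 0.120). Fos and Egr1 followed (r = 0.80, adjusted permutation p = 0.0466; rho = 0.73, adjusted permutation p = 0.126). Egr1 with Egr4 (r = 0.74; rho = 0.65, adjusted permutation p = 0.133) and Fos with Dusp1 (r = 0.64; rho = 0.61, adjusted permutation p = 0.133) were the other pairs that passed by Pearson's r (adjusted permutation p = 0.0466 each), and 0 pairs passed by Spearman's rho. Without the 2 rats farthest from the median of Fos, ethanol rats 4 and 5, r was 0.64 for Fos with Nr4a1, 0.52 for Fos with Egr1 and 0.45 for Fos with Dusp1; without the same 2 rats, which were also farthest for Egr1, Egr1 with Egr4 had 0.56. The 10 pairs of Fos, Egr1, Nr4a1, Nr4a3 and Dusp1 leave out Junb. Their median r was 0.89 among the 7 ethanol rats and 0.39 among the 8 water rats. The r of Junb with those 5 genes ran from -0.096 to 0.14. Over all 15 pairs of the tested genes, Junb included, the median r was 0.81 among ethanol rats and 0.043 among water rats. Neither contrast between the groups was tested. Without ethanol rat 5, r over the remaining rats ran from -0.47 to 0.70 for the 10 pairs, against -0.13 to 0.82 with all 15 rats. Nr4a3 and Dusp1 had an r of -0.74 among water rats and 0.72 among ethanol rats, a difference that was not tested.

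**Figure D4:**
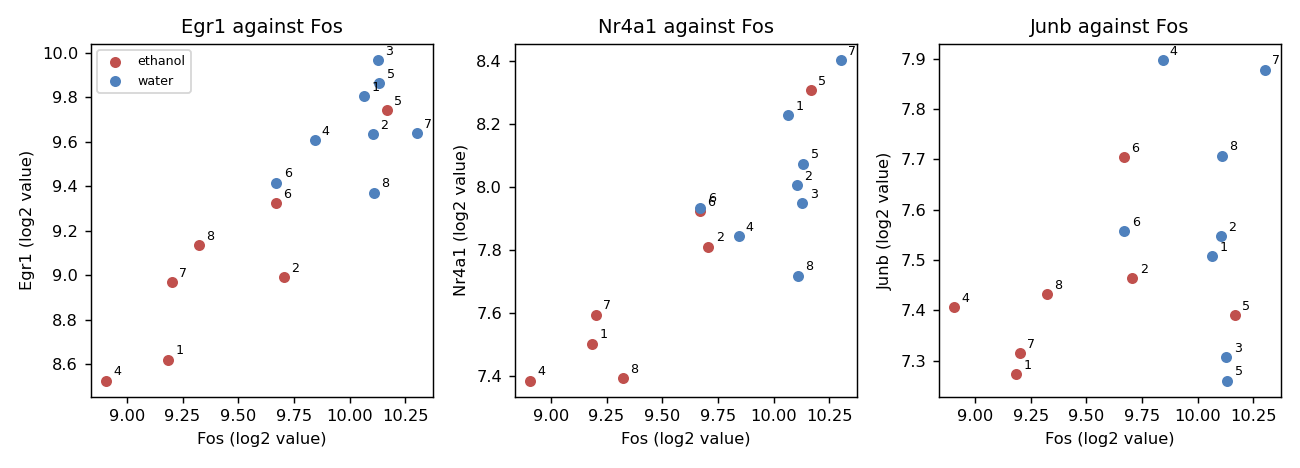
Log2 values of Egr1, Nr4a1 and Junb (vertical axes) against Fos (horizontal axes) in ethanol rats (red, n = 7) and water rats (blue, n = 8), with animal numbers. Egr1 and Nr4a1 run with Fos (r = 0.80 and 0.82 after removal of the group means), and the r of Junb is 0.12.

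Of the 13747 other tested probe sets with 1 symbol, those whose deviations from the group means ran most like the average of the 10 genes were Xylt2 (r = 0.82), Tcf7l2 (0.81), LRRTM1 (0.78), Usp21 (0.78), Adgrb1 (0.77) and Patl1 (0.77), over 15 rats. Their rho was 0.83, 0.63, 0.55, 0.79, 0.79 and 0.75 in that order. These are the highest of many values and carry no p. The average gave equal weight to the dim Fosb, Egr2, Egr4 and Arc. It was farthest from 0 in ethanol rat 5 (1.52 SD units), against -0.97 to 0.56 in the other rats. The r of LRRTM1 was 0.83 among ethanol rats and 0.39 among water rats. None of these probe sets passed the threshold between the groups (limma adjusted p from 0.372 to 0.935). Tcf7l2 encodes a transcription factor of the Wnt pathway, LRRTM1 a postsynaptic adhesion protein and Adgrb1 an adhesion receptor.

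Lists of other genes of the same response had medians near that of all genes. Of 19 other immediate early transcription factors listed, 12 were tested, 1 fell, 0 rose, and the median was -0.0084, against 1.14% of the 10252 tested genes called and a median of 0.0017. The one that fell was Nfil3, a bZIP repressor that also acts in the circadian clock. It ranged from 7.53 to 8.03 in ethanol rats and from 8.04 to 8.52 in water rats, without overlap, as in 0.623% of all tested probe sets. Its difference was -0.48 (SE 0.08, limma adjusted p = 0.00587), and ethanol rat 5, at 7.89, lay with its group. Per1, a clock gene with CRE-driven induction, had -0.14 (SE 0.06, limma adjusted p = 0.343). Jun, the main partner of Fos, had -0.12 (SE 0.09), and Jund 0.060 (SE 0.05). Nr4a2, the third receptor of its family and an identity factor of dopamine neurons, had 0.11 (SE 0.15).

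Of 20 activity-induced effector genes, 13 were tested and 0 passed, with a median of -0.050. Gadd45b, which takes part in DNA demethylation after activity, was higher in 6 of the 7 ethanol rats than in any water rat, with 9.01 to 9.53 in ethanol and 8.86 to 9.18 in water rats (log2 0.32, SE 0.08, limma adjusted p = 0.0609), and it passed in 1 of the 15 fits with 1 rat left out (without ethanol rat 1, limma adjusted p = 0.0139). This is the direction opposite to Fos and Egr1. Plk2, a kinase that scales down synapses, had -0.13 (SE 0.05, limma adjusted p = 0.291), the scaffold gene Homer1 -0.056 (SE 0.05) and the neurotrophin Bdnf -0.035 (SE 0.12).

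Of 15 feedback inhibitors and mRNA decay factors, 9 were tested and 0 passed, with a median of -0.028. The smallest p belonged to Nab1, a corepressor of Egr proteins (log2 -0.087, SE 0.04, limma adjusted p = 0.362), and to Btg1 (0.18, SE 0.08, limma adjusted p = 0.378). Dusp6, the ERK phosphatase related to Dusp1, had -0.028 (SE 0.08). Upstream, 23 of 29 listed kinases and transcription factors were tested and 0 passed, with a median of 0.0023 and a range of -0.14 to 0.11. Elk1, the SRF partner, had -0.14 (SE 0.05, limma adjusted p = 0.279) and Mef2d 0.077 (SE 0.04, limma adjusted p = 0.518). Srf itself had 0.015 (SE 0.06) and Creb1 -0.079 (SE 0.06). Transcript levels of these factors do not show their phosphorylation, through which they act on immediate early genes.

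**Figure D5:**
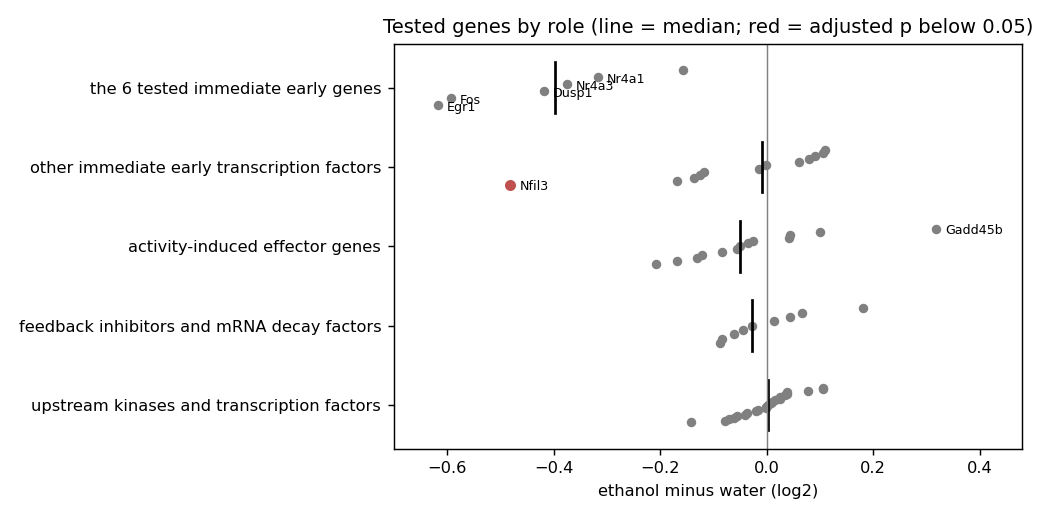
Ethanol minus water difference (log2) of each tested gene, 1 point per gene by its brightest probe set, in the immediate early genes and in 4 lists of related genes by role. Black lines are medians, red marks the gene that passed the threshold (Nfil3), and Fos and Egr1 lie farthest to the left.

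Cell type markers were read in the same arrays, where 1.14% of the 10252 tested genes were called and 49.1% had lower means in ethanol rats. Dopamine neuron markers (6 of 7 tested) and general neuron markers (7 of 7) had 0 calls, with medians of 0.15 and -0.0058. Means in ethanol rats were higher for all 6 dopamine neuron markers, and for 2 of the 7 general ones. Of 9 oligodendrocyte markers, 8 were tested, all 8 with lower means in ethanol rats, and 3 fell (Ugt8, Fa2h and Cldn11), with a median of -0.22. Ugt8 passed in all 15 fits with 1 rat left out, Fa2h in 14 of them (not without ethanol rat 7, limma adjusted p = 0.0567) and Cldn11 in 4 (limma adjusted p up to 0.0879). Their mean level ran from 13.32 to 13.66 in ethanol rats and from 13.62 to 14.07 in water rats, and ethanol rat 5, at 13.47, lay with its group. All 9 microglial markers were tested and had higher means in ethanol rats, and 1 rose past the threshold (Trem2). Their median was 0.22, with mean levels of 9.18 to 9.46 in ethanol and 8.89 to 9.26 in water rats. Endothelial and mural markers (9 of 9 tested) had 0 calls, a median of 0.048 and overlapping levels of 8.67 to 8.89 in ethanol and 8.65 to 8.90 in water rats. Of 7 meningeal and choroid plexus markers, 3 were tested (Col1a2, Dcn and Igf2) and 0 passed, with a median of -0.58 and mean levels of 8.01 to 8.90 in ethanol and 8.35 to 9.43 in water rats. Markers of GABA and glutamate neurons (4 tested, median 0.092), astrocytes (7, median -0.079), oligodendrocyte precursors (2, median -0.014), blood (Hbb, -0.17) and neighbouring nuclei (Slc6a4, -0.19) had 0 calls. The part of these cell types in the immediate early values was not tested.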

How the data were processed

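Per the labels' protocols, RNA was extracted with Trizol and RNeasy columns, and biotin-labelled copies were made from 25 ng of total RNA with 2 cycles of amplification. The authors deposited log2 values made with RMA, per the submitters' processing notes (its version is not stated there). RMA compresses differences of dim probe sets. Array medians ran from 7.73 to 7.79, so no depth applies, and the number of arrays limits the precision.

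The table held 31099 probe sets on 15 arrays, 57 of them controls, which were left out. Names came from GEO's platform annotation: 20826 probe sets had 1 symbol, 436 had several (not named here) and 9780 had none listed. Of the 1-symbol sets, 20758 had an Entrez number in the RefSeq table of GRCr8, and 0 symbols changed. Groups came from the sample titles. Probe sets at or above the 40th percentile of the mean (18625) entered a 2-group model without covariates in limma 3.58.1 (lmFit and eBayes; R 4.3.3), tested two-sided. For a probe set below this filter, the fit over all 31042 is given. Correlations used 100000 permutations in Python 3.11.15 with SciPy 1.17.1. The fit was tested on simulated data. Alternatives were other filters, array centring, another variance prior, array weights, a block, an exact permutation test, gene means and leaving out each rat.

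The members and gene lists were chosen with earlier results of these data known. Named are all members, in each related list every gene called and the 2 with the smallest p, the 6 probe sets most like the members, and called markers. Jun, Jund, Nr4a2, Homer1, Bdnf, Dusp6, Srf, Creb1, Slc6a4, Gad1, Gad2, Slc32a1, Slc17a6, Slc1a2, Gjb6, Col1a2, Dcn and Igf2 are also named. These were chosen with their values already known. Nothing in the labels says that rats of a group came from separate litters or cages.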

Additional observations from a re-analysis of the deposited data

How the results depend on the processing

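The 6 tested sets kept their direction in every alternative that tested them. A filter at the median of all probe sets left 4 of them, without Junb and Nr4a3 (median -0.51), and the fit without a filter took in all 16 probe sets (median -0.25). Over the same 6 sets, leaving out 1 rat at a time gave medians from -0.47 to -0.35, 0 to 2 calls among the members, and 100 to 180 calls among all 18625 probe sets. The 2 calls, Egr1 and Fos, came without ethanol rat 5. Egr1 alone also passed, as 1 call, with arrays centred on their medians (limma adjusted p = 0.0479, where 1.09% of all probe sets were called) and with array weights (limma adjusted p = 0.0423, with 1.23% called). Over all its alternatives its adjusted p ran from 0.0102 to 0.155. That of Fos ran from 0.0112 to 0.184. Nfil3 passed in all 15 fits with 1 rat left out (limma adjusted p up to 0.0168), and Gadd45b in 1 of them.

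The exact permutation test called 61 of all tested probe sets, against 173 with limma, and 0 members. The titles do not say whether rats with the same animal number were paired, and 7 pairs are too few to exclude it. The correlation of same-numbered deviations ran from -0.41 to 0.29 over 7 pairs, 4 were above 0.1, and 1 of 7 ethanol rats correlated best with its own number. With the replicate block, 59 probe sets were called and 0 members, and the members' median was -0.40. When the tested probe sets of each gene were averaged before the fit, 132 genes were called, against 125 genes with at least 1 called probe set in the fit by probe set. By the brightest tested set of each gene, the count behind the 1.14% given above, 117 were called. Dim signal limits Fosb, Egr2, Egr4 and Arc, which had no tested set.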

Other observations

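Rat-to-rat spread of the brighter members differed between the groups. The SD of Fos was 0.42 in ethanol rats (n = 7) and 0.20 in water rats (n = 8), and that of Egr1 was 0.41 and 0.21. Without ethanol rat 5 the SD of the ethanol rats was 0.31 for Fos and 0.30 for Egr1 (n = 6). Junb and Dusp1 had the opposite order, with 0.14 and 0.24 in ethanol rats against 0.24 and 0.31 in water rats. No test of these spreads was made. Dixon's ratio is based on a rat's distance from its nearest neighbour. It did not exceed its critical value in any of the 32 combinations of a member probe set and a group.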
